A study of Homo sapiens with 10 samples.

Results

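The homeobox genes outside the HOX clusters were followed through a glioma experiment in which the homeobox gene MEOX2 was lowered in the SNB19 line and raised in the U87 line. The set was a list of 45 symbols: MEOX2 and its paralogue MEOX1 together with 43 other homeobox genes, listed by name. Of these, 44 had a row among the 34567 genes of the table, and EN2 was not analysed here. SNB19 and U87 are human glioblastoma cell lines. Both were kept in DMEM with fetal bovine serum. In SNB19, 3 libraries came from cells transfected with a scramble siRNA (SNB19 NC) and 3 from cells transfected with MEOX2 siRNA (SNB19 siMEOX2). In U87, 2 libraries came from cells carrying an empty lentiviral vector (U87 EV) and 2 from cells carrying a MEOX2 overexpression lentivirus (U87 OE). The knockdown was a transient transfection and the overexpression a stable line made by lentivirus, so route and line changed together. The labels do not say which siRNA duplex was used, and nothing states that the libraries of a group came from separate cultures, so p-values measure the spread between these libraries, which may be technical. The treatment labels of 3 U87 libraries name MEOX3, MEOX4 or MEOX5, whereas every U87 title names MEOX2. Groups were taken from the titles, in which both U87 OE libraries carry the same name in brackets beside their own numbers.

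Homeobox genes encode transcription factors that bind DNA through a conserved homeodomain, and most are known from patterning of the embryo. The PBX, MEIS, PKNOX, TGIF and IRX proteins belong to the TALE class, whose homeodomain carries an inserted loop, and PBX and MEIS proteins act as partners of HOX and other homeodomain proteins on DNA. MEOX1 and MEOX2 are the mesenchyme homeobox genes, known from somite, limb muscle and vascular development.

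The MEOX1 and MEOX2 transcripts resemble each other in their coding part, which bears on whether reads of the paralogues can be told apart. The best ungapped match of the coding sequences in GENCODE release 29 (GRCh38) covered 254 bases, from coding base 447 to 700 of MEOX1 and from 495 to 748 of MEOX2, and holds the homeobox. The coding exons 1 to 3 lie on the minus strand at chr17:43641975-43661088 for MEOX1 and at chr7:15612554-15685908 for MEOX2. Capitals mark the 71 bases at which the sequences differ.
MEOX1: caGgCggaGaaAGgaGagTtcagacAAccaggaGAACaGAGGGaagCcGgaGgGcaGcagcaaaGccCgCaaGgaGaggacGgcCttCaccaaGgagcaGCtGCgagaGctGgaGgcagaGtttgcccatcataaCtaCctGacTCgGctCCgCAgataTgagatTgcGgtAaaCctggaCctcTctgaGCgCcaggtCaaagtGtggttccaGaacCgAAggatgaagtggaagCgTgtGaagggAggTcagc
MEOX2: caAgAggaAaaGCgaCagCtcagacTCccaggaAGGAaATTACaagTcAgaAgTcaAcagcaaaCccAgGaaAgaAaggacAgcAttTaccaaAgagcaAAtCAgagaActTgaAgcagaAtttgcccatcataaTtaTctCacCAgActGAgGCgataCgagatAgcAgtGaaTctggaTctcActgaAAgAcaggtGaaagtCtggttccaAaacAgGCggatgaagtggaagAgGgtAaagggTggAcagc
Identity over this stretch was 72.05%, and the longest run without a difference was 14 bases. The reads were 150 bases long, paired, so a read lying within this stretch spans several capitals. The U87 OE libraries held 4999 and 5308 counts of MEOX2 and 0 of MEOX1, so reads of MEOX2 were not counted as MEOX1 there.

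Library totals lay between 12533775 and 16560324 counts. Changes within a gene are given as normalised counts, that is, CPM (counts scaled to a common library size) after TMM scaling. Levels between genes are given as FPKM, which is per length. U87 EV library 1 stood apart from the other 9. Its TMM factor was 0.695, and genes of ribosomal proteins took 12.98% of its counts, against 4.041% to 6.679% in the others. Relative to EV library 2, the median log2 ratio was 0.93 for genes under 3104 bases and -0.56 for genes over 5983 bases, whereas the same ratios between the OE libraries were -0.10 and 0.05. EV library 2 correlated better with the OE libraries across genes (Pearson r of 0.964 and 0.963) than with EV library 1 (0.944). The median length of the members tested was 4623 bases, close to the 4383 bases of all genes tested. The members called in the overexpression differed in length, however. Those that rose ran from 4716 (ZHX2) to 8246 bases (PRRX1), apart from MEOX2 (2500). Those that fell ran from 2911 (IRX3) to 5122 bases (MEIS3). Whether length bears on these calls was not tested. Because EV library 1 stood apart, counts of members called, and some of the values that moved, are given with and without it. Its part in each change was not tested beyond that.

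Most of the glioma or astrocyte markers were detected: 9 of 10 reached 10 counts in every library of both SNB19 groups and 8 of 10 in both U87 groups. PDGFRA lay at this limit in U87, with 10 to 12 counts a library (0.0720 FPKM in EV, against 0.139 in SNB19 NC). S100B was below 10 counts in all groups, SOX2 was at 0.0141 FPKM in U87 EV against 13.2 in SNB19 NC, and GFAP was at 0.196 and 0.364 FPKM. The summed FPKM of the 10 markers was 246.5, 245.8 and 247.0 in SNB19 NC and 125.9, 122.1 and 123.0 in SNB19 siMEOX2. In U87 it was 756 and 339 in EV and 214.5 and 210.3 in OE. VIM was the most abundant marker in all groups. On knockdown CD44, NES, GFAP, SOX2 and SOX9 passed as lower (edgeR, adjusted p under 0.05), as did 8.75% of all genes. VIM (log2 -1.03, adjusted p 0.104) and EGFR (log2 -0.82, adjusted p 0.0979) were fitted lower without passing. OLIG2 (log2 0.49) and PDGFRA (log2 0.48) were fitted higher, and neither passed. In the overexpression NES (log2 -4.02, adjusted p 8.0e-05) and VIM (log2 -2.33, adjusted p 0.00884) fell and OLIG2 rose (log2 1.78, adjusted p 0.00107), and without EV library 1 these log2 changes were -3.56, -0.99 and 2.18. The 4 endothelial markers summed to between 5.43 and 6.08 FPKM in SNB19 NC and between 1.47 and 1.62 in SNB19 siMEOX2, led by PECAM1. The 4 epithelial markers summed to between 68.9 and 74.2 FPKM in SNB19 NC and between 49.8 and 56.8 in SNB19 siMEOX2, nearly all of it KRT8 and KRT18, and to at most 1.01 in U87. Against this sum, CDH1 rose on knockdown from 0.178 to 0.712 FPKM (log2 1.90, adjusted p 0.0354). The 4 smooth muscle markers reached 35.4, led by CNN1 in SNB19, the 4 neuronal markers 3.35 and the 4 immune markers 0.990 in their highest library, and PTPRC, AIF1 and CX3CR1 were at or near 0 throughout. The smooth muscle sum was between 32.3 and 35.4 in SNB19 NC and between 23.2 and 28.3 in SNB19 siMEOX2. In U87 it was 5.87 and 6.97 in EV and 3.385 and 3.99 in OE. There 3 of the 4 passed as lower, where 14.9% of all genes did. The neuronal sum in U87 was 2.04 and 3.35 in EV and 0.964 and 0.67 in OE. Whether these shifts in marker levels bear on the changes of homeobox genes was not tested. In bulk RNA, fewer cells of a type and less RNA per cell cannot be told apart.

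More homeobox genes were detected in the SNB19 controls than in the U87 controls. More genes in all had any count there too, with 25662, 23434 and 24433 in SNB19 NC and 19590 and 21060 in U87 EV. That limit is looser than the limit used for members, so the shares were not compared. With at least 10 counts in every library as the limit, 34 of 44 members were detected in SNB19 NC and 27 in U87 EV. Of these, 25 were detected in both controls. EN1, GBX2, LHX2, LHX9, MEOX1, MEOX2, MSX2, SIX2 and TGIF2 were detected in SNB19 NC only, and HLX and PRRX1 in U87 EV only. DLX5, EMX2, HHEX, IRX1, IRX2, PKNOX2, POU3F2 and PRRX2 reached the limit in neither control, and these 8 were also the members that the low-count filter removed, which left 36 members tested.

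**Figure D1:**
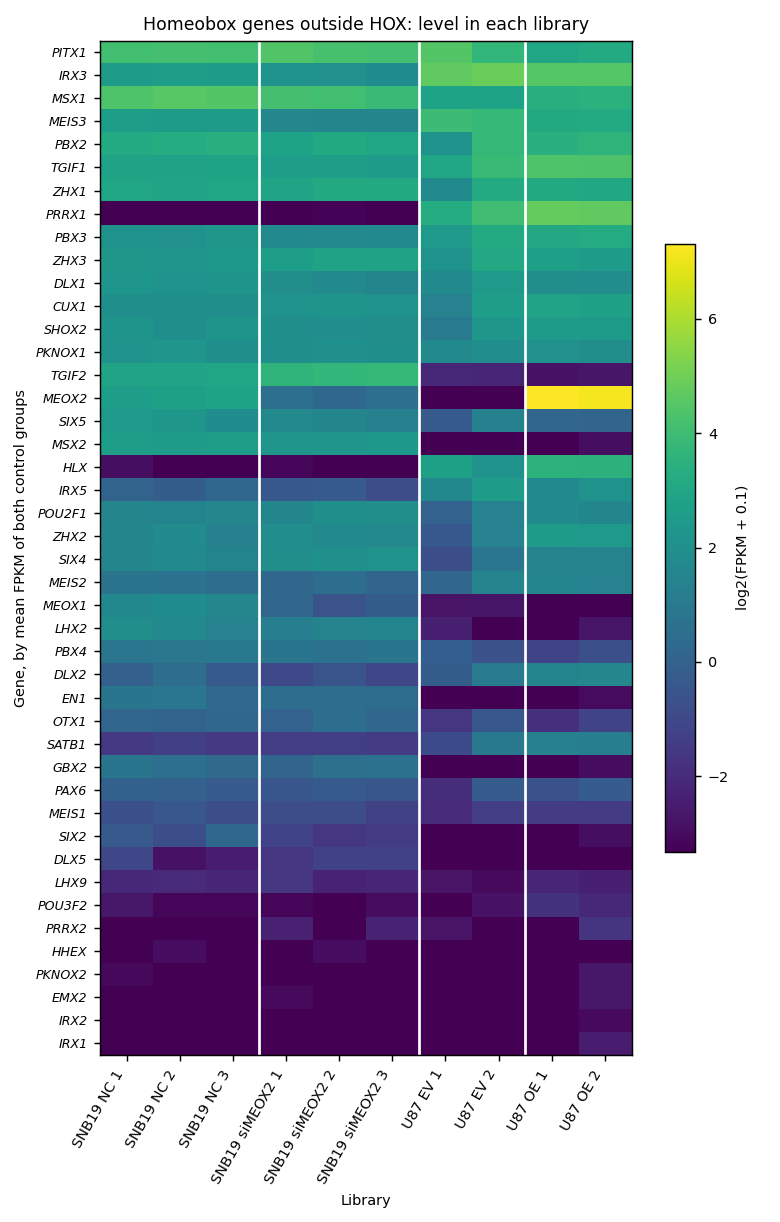
Level of each of the 44 members in each of the 10 libraries as log2(FPKM + 0.1), colour scale at right, rows ordered by the mean FPKM of both control groups and white lines between the groups. MEOX2 is near the bottom of the scale in U87 EV and at the top in U87 OE (152 FPKM), and PRRX1 and HLX are dark in SNB19.

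In SNB19 NC the highest members were MSX1, a repressor of craniofacial and limb development, at 22.2 ± 1.52, PITX1, a hindlimb and pituitary factor, at 17.3 ± 0.555, PBX2, a TALE partner protein, at 9.50 ± 0.554, the zinc finger homeobox gene ZHX1 at 7.51 ± 0.112 and TGIF2, a corepressor of TGF-β signalling, at 7.47 ± 0.197 FPKM (mean ± SD, n = 3). MSX1 and PITX1 differed from the rest by more than their spread, whereas ZHX1 and TGIF2 did not differ from each other beyond theirs. In U87 EV the highest were the Iroquois gene IRX3 at 28.2 ± 2.78, PITX1 at 17.6 ± 6.29, MEIS3, a TALE partner of PBX proteins, at 14.7 ± 1.33, PRRX1, a paired-related factor of mesenchyme, at 13.0 ± 5.08 and TGIF1, the paralogue of TGIF2, at 11.3 ± 5.04 FPKM (n = 2). There the spread was wide and only IRX3 lay above the others by more than it. MEOX2 was at 6.54 ± 0.536 and MEOX1 at 3.15 ± 0.284 FPKM in SNB19 NC. MEOX2 did not differ from MSX2 (6.01 ± 0.204) beyond the spread, and MEOX1 was below PBX3 (4.43 ± 0.358).

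Comparing the controls asked how the homeobox genes of the lines differ before MEOX2 is changed. Cell line, scramble siRNA and empty vector with its selection cannot be told apart in it. By edgeR's quasi-likelihood test with Benjamini-Hochberg adjustment over all 17312 genes tested, 24 of 36 members passed an adjusted p of 0.05, 15 higher in SNB19 NC and 9 lower. This share is to be read against 56.9% of all genes (28.1% higher, 28.8% lower). The median log2 difference was 0.23 over the members and 0.03 over all genes, and -0.02 and 0.09 without EV library 1. Without EV library 1, 30 of 37 members passed, 14 higher and 16 lower, against 63.4% of all genes (32.5% higher, 30.9% lower).

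Among the MEOX genes, MEOX2 had 249, 224 and 275 counts in SNB19 NC and 0 in both U87 EV libraries. Set against a floor of 3 counts over the EV group, its normalised level was at least 127.2-fold higher in SNB19 NC. MEOX1, with 7.74, 8.94 and 7.59 normalised counts in SNB19 NC, had 2 counts in each EV library, a log2 difference of 5.56.
MEOX2 was 1 of 11 members with no count in U87 EV, of which MSX2, EN1, GBX2 and SIX2 were also tested. MSX2, a repressor known from skull and limb development, had 232, 180 and 214 counts in SNB19 NC and none in U87 EV, at least 106.5-fold. EN1, which marks the boundary of midbrain and hindbrain, had 79, 67 and 52 counts against none, at least 33.7-fold.
Fewer counts lay behind GBX2 and SIX2. GBX2, which acts at the same boundary, had 63, 44 and 42 counts against none, at least 25.3-fold. SIX2, known from nephron progenitors, had 25, 15 and 37 counts against none, at least 13.1-fold. In all of these the groups were fully separate.

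TGIF2 had 26.5, 26.6 and 27.4 normalised counts in SNB19 NC and 0.713 and 0.449 in U87 EV, a log2 difference of 5.53. The TGIF pair was thus divided, since TGIF1, at 53.7, 54.6 and 55.1 against 91.5 and 128, was lower in SNB19 (-1.01). LHX2, a LIM homeobox gene of eye and forebrain, had 9.36, 8.04 and 6.38 normalised counts in SNB19 NC. In U87 EV it had 4 counts in library 1 and 0 in library 2, and its fitted difference moved from 5.52 to 9.91 without EV library 1.
In the opposite direction, PRRX1 had no count in the 3 SNB19 NC libraries and 1252 and 1922 counts in U87 EV, at least 2074-fold higher in U87. HLX, an H2.0-like gene known from gut and liver mesenchyme, had 3, 0 and 0 counts in SNB19 NC and 594 and 343 in U87 EV. Its ratio was 612 (95% counting interval 209.5 to 2968). IRX3 and MEIS3 were also lower in SNB19, by log2 differences of -2.63 and -1.78, with no overlap of the libraries.

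**Figure D2:**
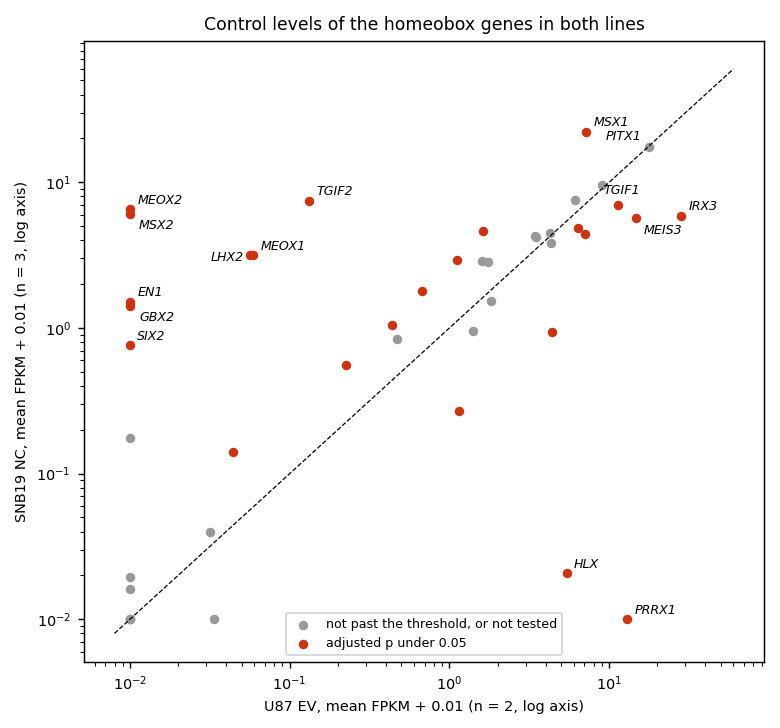
Mean FPKM + 0.01 of each of the 44 members in U87 EV (x, n = 2) and SNB19 NC (y, n = 3), both axes logarithmic, with the line of equal level dashed and red points at an adjusted p under 0.05. MEOX2, MSX2, EN1, GBX2 and SIX2 lie on the left edge, where U87 EV is at 0, and PRRX1 and HLX lie at the lower right.

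Since MSX2 was among the members that differed most between the lines, its promoter was searched for TAATTA, a palindromic core bound by many homeodomains (letters T, A, A, T, T, A, the same on both strands). The 201 bases shown run up to the start of MSX2 at chr5:174724332-174724532 on the plus strand (RefSeq, GRCh38.p14), with the match in capitals.
MSX2: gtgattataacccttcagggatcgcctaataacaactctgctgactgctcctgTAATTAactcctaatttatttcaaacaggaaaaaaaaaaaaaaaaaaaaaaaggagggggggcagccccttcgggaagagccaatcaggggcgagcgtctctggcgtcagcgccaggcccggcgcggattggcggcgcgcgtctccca
It held 1 match. In the 250 bases before the start, 1526 of 35116 promoter windows (4.346%) held the motif, and so did 2 of the 60 windows of members (3.333%), those of MSX2 and EMX2. A match is a description of the letters and no evidence of a site.

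The knockdown asked which homeobox genes change when MEOX2 is lowered. MEOX2 itself fell, and MEOX1 fell almost as much. Of 36 members tested, 8 passed the threshold: MEOX2, MEOX1, SIX2, MEIS3, IRX3, PBX3 and DLX1 fell and TGIF2 rose. This compares with 15.7% of all genes (6.99% higher and 8.75% lower). The median log2 change was -0.34 over the 36 members, 25 of them fitted lower, and -0.001267 over all genes. It was also -0.34 over the 34 members above the floor in either group.

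MEOX2 had 14.4, 15.5 and 16.7 normalised counts in SNB19 NC and 3.13, 2.47 and 3.07 in SNB19 siMEOX2. The groups were far apart, with a log2 change of -2.42, SE 0.14, adjusted p 9.1e-05. The gene spans 15611212 to 15686812 on chromosome 7. MEOX1, on chromosome 17 (43640388 to 43661954), had 7.74, 8.94 and 7.59 normalised counts in SNB19 NC and 2.55, 1.36 and 1.88 in SNB19 siMEOX2. All 3 knockdown libraries lay below all 3 controls, with a log2 change of -2.06, SE 0.25, adjusted p 0.00182. By mean FPKM the order MEOX2 above MEOX1 held in both SNB19 groups, at 6.54 and 3.15 before and at 1.29 ± 0.16 and 0.796 ± 0.23 after the knockdown (SD, n = 3).

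The TALE genes gave 4 of the 8 calls, while 7 other TALE members tested did not pass, and 15.7% of all genes passed. Whether TALE genes passed more often than others was not tested. MEIS3, at chromosome 19, 47403124 to 47419523, had 29.5, 26.3 and 27.1 normalised counts in SNB19 NC and 13.7, 12.4 and 13.0 in SNB19 siMEOX2. The replicates lay close together and the groups did not overlap (log2 -1.08, SE 0.16, adjusted p 0.00319). PBX3, a partner of MEIS and HOX proteins, had 18.8, 17.8 and 20.6 in SNB19 NC and 13.5, 12.6 and 13.2 in SNB19 siMEOX2, again without overlap (log2 -0.54, SE 0.13, adjusted p 0.0219). IRX3, known from neural patterning and the heart (chromosome 16, 54283304 to 54286763), had 16.3, 17.1 and 15.4 against 11.4, 10.4 and 8.90 (log2 -0.67, SE 0.13, adjusted p 0.01). TGIF2 (chromosome 20, 36573488 to 36593950) was the exception in direction, with 26.5, 26.6 and 27.4 in SNB19 NC and 41.7, 43.7 and 44.6 in SNB19 siMEOX2. Every knockdown library lay above every control (log2 0.69, SE 0.12, adjusted p 0.00619). TGIF2 shares exons with the read-through gene TGIF2-RAB5IF, and exons of IRX3 overlap an antisense gene, so counts of these members may hold reads of their neighbours. The other 7 TALE members tested did not pass with all libraries, among them TGIF1 (log2 -0.33, SE 0.13, adjusted p 0.138) and PBX2 (log2 -0.36, SE 0.26, adjusted p 0.394). By edgeR with the SNB19 libraries alone, TGIF1 (log2 -0.31, adjusted p 3.7e-04), PBX2 (log2 -0.35, adjusted p 9.9e-04), MEIS2, IRX5 and MEIS1 passed. PBX4 and PKNOX1 did not, and 55.9% of all genes passed in that fit.

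Outside the TALE class, SIX2 had 1.45, 1.04 and 2.25 normalised counts in SNB19 NC and 0.696, 0.432 and 0.501 in SNB19 siMEOX2. Its libraries did not overlap, but it rested on 77 and 27 counts in all and lay at the threshold (log2 -1.52, SE 0.43, adjusted p 0.0488). DLX1, a distal-less gene known from forebrain interneurons, had 16.4, 15.1 and 15.2 against 12.4, 10.8 and 9.15, also without overlap (log2 -0.53, SE 0.15, adjusted p 0.0431). MSX1 lay just outside, at 42.0, 47.8 and 44.6 against 34.7, 32.2 and 26.7 (log2 -0.52, SE 0.15, adjusted p 0.0501), and so did DLX2 (log2 -1.13, SE 0.34, adjusted p 0.0536). PITX1 and ZHX1 overlapped between the groups, at 57.1, 60.04 and 56.4 against 69.4, 57.5 and 53.8 and at 48.9, 47.4 and 48.1 against 44.8, 51.6 and 52.5 normalised counts. EN1, GBX2 and LHX2, which U87 EV lacked or nearly lacked, had log2 changes of -0.30, -0.17 and -0.41, and none of them passed with all libraries. By edgeR with the SNB19 libraries alone, LHX2 passed (log2 -0.39, adjusted p 0.0346), while EN1 and GBX2 did not.

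**Figure D3:**
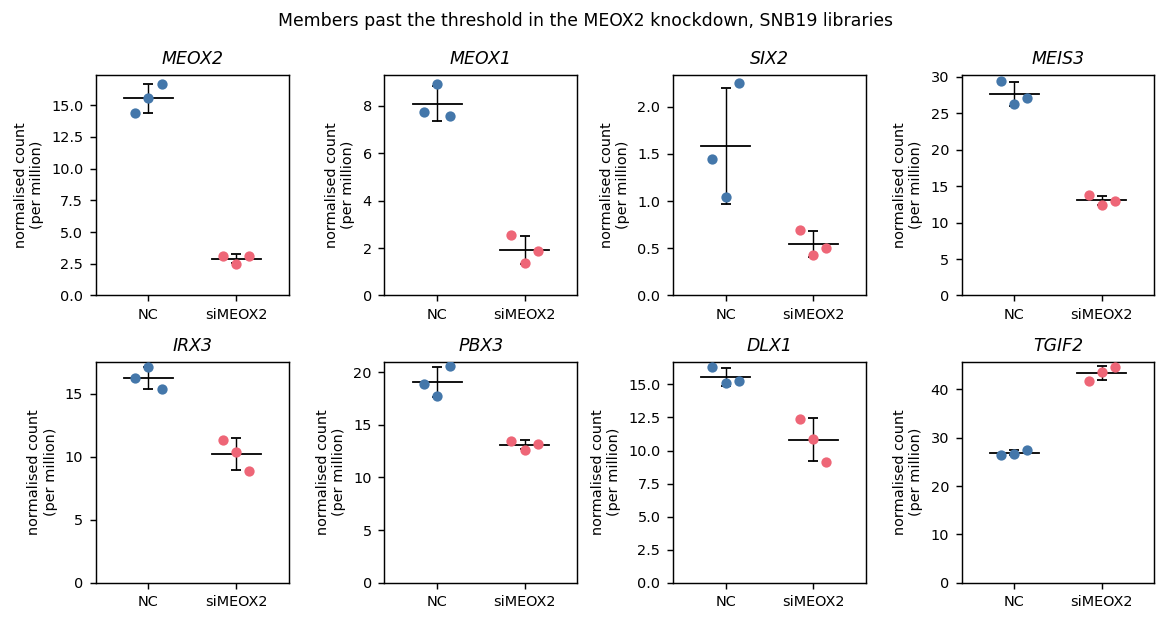
Normalised count of the 8 members that passed the threshold in the knockdown, in SNB19 NC and SNB19 siMEOX2 (points: libraries, n = 3 a group; line and bar: mean and SD). In every panel the groups do not overlap, and only TGIF2 is higher after the knockdown.

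The number of calls changed with the U87 libraries, which enter the joint fit and its estimate of spread. With the SNB19 libraries fitted alone, 23 of 34 members passed, 4 higher and 19 lower, against 55.9% of all genes (27.4% and 28.5%). Without EV library 1, 23 of 37 passed, 4 higher and 19 lower, against 47.1% (22.5% and 24.6%), and the 8 members above were among them. The count was 22 without EV library 2. By the study's thresholds, an unadjusted p under 0.05 and more than 2-fold, it was 5, against 10.6% of all genes. It was 4 without NC library 2 or siMEOX2 library 3, and 5 without NC library 1 or 3 or siMEOX2 library 2. The calls over all genes moved the same way, from 2725 to 8700 without EV library 2 and to between 1148 and 1289 in the other 5 of these fits. In the libraries themselves, 21 of 36 members were lower in all 3 knockdown libraries than in all 3 controls, against 29.4% of all genes, and 4 were higher in all 3, against 27.6%. With SNB19 alone, MSX1 (log2 change -0.50, SE 0.09), MSX2 (-0.40), SIX5 (-0.79), DLX2 (-1.11) and MEIS2 (-0.50) were among the 19 that fell, and SIX4 (0.38), ZHX3 (0.37) and POU2F1 (0.23) rose beside TGIF2.

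The overexpression asked the converse. MEOX2 had no count in U87 EV and 4999 and 5308 counts in U87 OE, at least 3255-fold more on the normalised scale. Its level in U87 OE, 152 ± 10.2 FPKM (n = 2), was far above that in SNB19 NC, and reads of the vector and of the cell's own gene cannot be told apart. Of 36 members tested, 8 passed the threshold: MEOX2, ZHX2, SIX4, PRRX1 and TGIF1 rose and PITX1, MEIS3 and IRX3 fell. This compares with 26.2% of all genes (11.3% higher, 14.9% lower). The median log2 change was 0.34 over the members and -0.02 over all genes. Without the 4 members at or under the floor in both groups, and with groups at 0 set at the floor, it was 0.26, against -0.06. Leaving out EV library 1 instead moved the median to 0.21 over the members and 0.05 over all genes.

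Among the 5 that rose, ZHX2, a zinc finger homeobox repressor, had 4.46 and 12.5 normalised counts in EV libraries 1 and 2 and 27.8 and 26.1 in the OE libraries. The groups did not overlap (log2 1.66, SE 0.38, adjusted p 0.0136), and the log2 change was 1.15 without EV library 1. SIX4, a gene of muscle and sensory development, had 4.64 and 12.04 against 17.98 and 18.2 (log2 1.11, SE 0.34, adjusted p 0.0403). EV library 1 was much the lower of the pair, and without it the log2 change was 0.63. PRRX1 had 112 and 144 against 238 and 229.8 (log2 0.87, SE 0.23, adjusted p 0.0312) and TGIF1 had 91.5 and 128 against 176 and 173 (log2 0.67, SE 0.16, adjusted p 0.0177). In both genes the EV libraries differed by more than the OE libraries, yet neither reached the OE level.

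Among those that fell, PITX1 had 112 and 48.7 normalised counts in U87 EV and 28.1 and 32.9 in U87 OE (log2 -1.39, SE 0.32, adjusted p 0.0141). EV library 1 lay well above EV library 2, and without it the log2 change was -0.63. MEIS3 had 116 and 74.2 against 46.7 and 49.0 (log2 -0.99, SE 0.20, adjusted p 0.00729), and -0.59 without EV library 1. IRX3 had 109.8 and 92.2 against 69.2 and 70.6 (log2 -0.53, SE 0.15, adjusted p 0.0334), and -0.36 without it. MEIS3 and IRX3 therefore fell both when MEOX2 was lowered in SNB19 and when it was raised in U87. PITX1 and IRX3 each overlap an antisense gene.

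**Figure D4:**
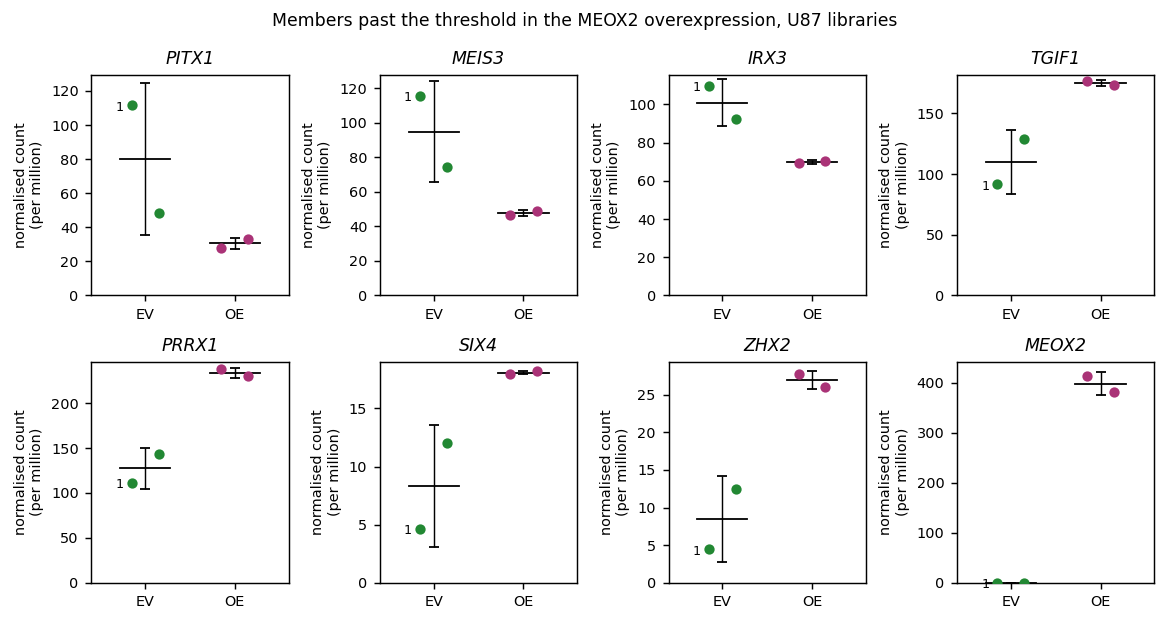
Normalised count of the 8 members that passed the threshold in the overexpression, in U87 EV and U87 OE (points: libraries, n = 2 a group; line and bar: mean and SD; EV library 1 marked 1). The OE libraries lie close together, while the EV libraries are spread in most panels, as for ZHX2 (4.46 and 12.5) and PITX1 (112 and 48.7), and are both at 0 for MEOX2.

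MEOX1 was at the limit of detection in U87, with 2 counts in each EV library and 0 in each OE library, and a change was not detectable at this depth. HLX had 53.0 and 25.6 normalised counts in U87 EV and 68.1 and 67.6 in U87 OE. The OE libraries were higher than both controls, but the change did not pass with all libraries (log2 0.79, SE 0.39, adjusted p 0.158) and was 1.45 without EV library 1 (edgeR, adjusted p 9.8e-09). MSX1 had 22.02 and 16.0 against 22.2 and 24.6 (log2 0.30, SE 0.19, adjusted p 0.269), and the change was 0.60 without EV library 1 (adjusted p 0.00378). PBX2, PBX3 and ZHX1 overlapped between the groups, and DLX1 was lower in both OE libraries (log2 -0.39, SE 0.18, adjusted p 0.138), passing without EV library 1 (log2 -0.48, adjusted p 0.0213). MSX2, EN1, GBX2 and SIX2 had 1 count in OE library 2 and none in the other U87 libraries, so no fold is given for them. TGIF2 had between 2 and 8 counts in each U87 library (log2 -1.53, SE 0.37, adjusted p 0.0783).

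**Figure D5:**
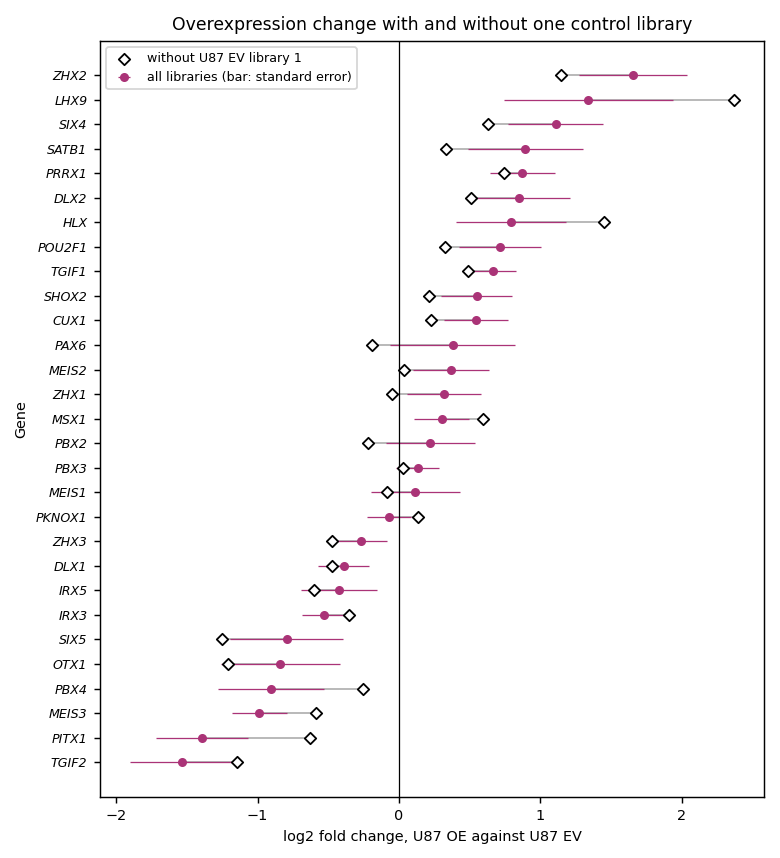
log2 fold change of U87 OE against U87 EV for the 29 members with more than 3 counts in both U87 groups, with all libraries (filled, bar: standard error) and without EV library 1 (open diamonds). Most open points lie nearer 0 than the filled ones, HLX, LHX9, SIX5 and OTX1 are among those farther out, and PAX6, PBX2, ZHX1, MEIS1 and PKNOX1 change side.

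Without EV library 1, 17 of 37 members passed, 9 higher and 8 lower, against 38.9% of all genes (20.4% and 18.4%), and the 8 members above were among them. That fit has 1 EV library, whose spread was taken to be like that of the other groups. The count was 22 without EV library 2, and only MEOX2 passed without OE library 1 or without OE library 2. The calls over all genes moved the same way, from 4538 to 10929, 1553 and 1675. With the U87 libraries fitted alone no gene passed by edgeR, while 5 members and 2643 of all genes had an unadjusted p under 0.05. Among the 36 members, 13 were higher in both OE libraries than in both EV libraries and 7 were lower, against 26.8% and 26.0% of all genes.

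The remaining 15 members tested passed in neither the knockdown nor the overexpression with all libraries. They were CUX1, SATB1, POU2F1, PKNOX1, PBX4, MEIS1, MEIS2, IRX5, LHX9, DLX2, SIX5, ZHX3, SHOX2, PAX6 and OTX1. Their mean FPKM lay between 0.130 (LHX9) and 4.85 (ZHX3) in SNB19 NC and between 0.0339 (LHX9) and 6.36 (ZHX3) in U87 EV. Their log2 changes lay between -1.13 (DLX2) and 0.36 (ZHX3) in the knockdown and between -0.90 (PBX4) and 1.34 (LHX9) in the overexpression. The latter range was -1.25 (SIX5) to 2.37 (LHX9), with PBX4 at -0.26, once EV library 1 was left out. In that fit 9 of the 15 passed in the knockdown, against 47.1% of all genes, and 6 in the overexpression, against 38.9%, namely SIX5 (adjusted p 3.8e-04), ZHX3 (3.4e-04), OTX1 (0.0139), LHX9 (0.0243), IRX5 (0.0276) and CUX1 (0.0451). The libraries of the groups did not overlap for 11 of the 15 in the knockdown and 7 in the overexpression, where 27.6% of all genes were higher and 29.4% lower in the knockdown, and 26.8% and 26.0% in the overexpression. Of the 15, 8 differed between the controls, a share close to the 56.9% of all genes, among them the CUT-class gene SATB1 (-2.38) and the Iroquois gene IRX5 (-2.56), lower in SNB19 NC, and LHX9 (1.49) and SIX5 (1.24), higher there (log2 differences). These became 2.47 for LHX9 and 0.74 for SIX5 without EV library 1.

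The change from lower to higher MEOX2 in SNB19 was then tested against that in U87, as the difference between the changes. MEOX2 went from 1.29 to 6.54 FPKM in SNB19 and from 0 to 152 FPKM in U87. Line, route and this range of MEOX2 cannot be told apart in the difference. This contrast uses all 4 groups and so shares its libraries with the comparisons above. Of 36 members, 9 passed, 6 with a larger rise in SNB19 and 3 with a larger rise in U87, against 24.4% of all genes. The 3 include MEOX2, the gene that was itself changed. The 6 include MEOX1, which had 4 counts in U87 EV and 0 in U87 OE. For MEIS3 the log2 difference was 2.07, SE 0.26, adjusted p 6.5e-04 and for IRX3 it was 1.20, SE 0.20, adjusted p 0.00314: with more MEOX2, both were higher in SNB19 and lower in U87. DLX1 (log2 0.92, SE 0.24, adjusted p 0.0216) and PITX1 (log2 1.33, SE 0.41, adjusted p 0.0433, and 0.56 without EV library 1) were on the same side, whereas ZHX2 (log2 -1.78, SE 0.48, adjusted p 0.0272) and SIX4 (log2 -1.47, SE 0.43, adjusted p 0.0357) were on the other. The count of 9 was 18 without EV library 1 (43.0% of all genes) and 19 without EV library 2. It was 4 without NC library 1, siMEOX2 library 2 or 3, or either OE library, and 5 without siMEOX2 library 1. The calls over all genes moved likewise, from 4229 to 7879 and 10435 without EV library 1 or 2, and to between 2265 and 3184 in the other 6 of these fits.

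The wider family was taken from a list of 129 other homeobox genes outside HOX, of which 115 were in the table and 47 were tested. In the knockdown 2 rose and 4 fell, 12.8% of the list against 15.7% of all genes. Among those with the smallest adjusted p were the LIM gene ISL2, of motor neurons (log2 1.52, SE 0.23, adjusted p 0.00329), DLX3 (log2 -2.17, SE 0.28, adjusted p 0.00344) and LHX6 (log2 -1.92, SE 0.32, adjusted p 0.00488). In the overexpression 8 rose and 2 fell, 21.3% against 26.2%. Leaving out EV library 1 gave 21 of 50 in the knockdown (6 higher, 15 lower), 42.0% against 47.1%, and 14 of 50 in the overexpression, where 38.9% of all genes passed. The 8 that rose in the overexpression with all libraries included PROX1, of lymphatic vessels (log2 2.98, SE 0.39, adjusted p 9.2e-04), DMBX1 (log2 2.05, SE 0.41, adjusted p 0.00707) and ONECUT2 (log2 1.53, SE 0.33, adjusted p 0.0104). The median log2 changes of the list were -0.03 in the knockdown and 0.52 in the overexpression, against -0.001267 and -0.02 over all genes. The overexpression median became 0.29 without EV library 1, against 0.05 over all genes.

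Of 8 genes linked to the MEOX genes or proteins in background knowledge, 5 were tested. PAX3, NKX3-2 and ZEB2 also belong to the wider list above and were counted there too. CDKN1A, the cell cycle inhibitor p21 that MEOX2 is known to induce in vascular cells, had 75.6, 74.9 and 72.8 normalised counts in SNB19 NC and 29.1, 27.8 and 26.9 in SNB19 siMEOX2. The groups were far apart (log2 -1.42, SE 0.10, adjusted p 1.2e-04). In U87 it had 374 and 341 against 457 and 498 and rose (log2 0.42, SE 0.12, adjusted p 0.0363). RNF10, whose protein binds MEOX2, fell in the knockdown (log2 -0.40, SE 0.10, adjusted p 0.0287), and ZEB2, a zinc finger homeobox repressor, rose in the overexpression (log2 1.50, SE 0.34, adjusted p 0.0128). With all libraries RNF10 did not pass in the overexpression (log2 0.22, adjusted p 0.212) nor ZEB2 in the knockdown (log2 -0.91, adjusted p 0.0583), but both passed without EV library 1 (log2 0.33, adjusted p 0.00247 and log2 -0.91, adjusted p 1.6e-09). With all libraries PAX3 (adjusted p 0.457 and 0.194) and NKX3-2 (0.787 and 0.469) passed in neither. CDKN2A was listed near 0 in all groups.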

How the data were processed

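RNA from 10 libraries was poly(A) selected and sequenced as 150-base pairs. The authors deposited raw counts and FPKM per gene; the submitters' processing notes name GRCh38, HISAT2, HTSeq 0.11.2 and DESeq2 1.26.0 without their roles. The kit named is not a strand-marking one and the counting's strand setting is not given in the sources used here, so a gene and its antisense partner cannot be told apart; exons of 17 members overlap another gene.

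Counts were fitted with edgeR 4.0.16 (R 4.3.3) for all 10 libraries and 4 groups, with TMM scaling, filterByExpr (minimum count 10) and Benjamini-Hochberg adjustment at 0.05 over 17312 genes, 6 residual degrees of freedom and no replicate block. SE is the log2 change over the root of F. Alternatives used DESeq2 1.42.0 and limma 3.58.1 (on log2(FPKM + 0.1), and voom). Intervals and floors cover counting error only. The model steps were tested on simulated data. Named with their values were MEOX1, MEOX2, members past the threshold on knockdown or overexpression, the 10 largest baseline differences the 5 highest FPKM in each control and the smallest adjusted p of the wider lists. Others named, such as members just outside the threshold, were chosen after their values were seen. Some genes of the wider list are not reported here. Members and lists were chosen with earlier results of these data known.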

Additional observations from a re-analysis of the deposited data

Results flagged for a closer look

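For 9 members the change from lower to higher MEOX2 differed between SNB19 and U87 by the edgeR test of that difference (adjusted p under 0.05). This is 9 of 36 tested, a share close to the 24.4% of all genes. A positive log2 difference means a larger rise in SNB19, and line, route and range of MEOX2 cannot be told apart in it. It was 6.40 for MEOX1 and -13.1 for MEOX2, where U87 OE or U87 EV had no count, so that these fitted values depend on the prior count. It was 2.07 for MEIS3, 1.20 for IRX3, 1.33 for PITX1, 0.92 for DLX1 and 1.60 for SIX5, and -1.78 for ZHX2 and -1.47 for SIX4. Without EV library 1 the differences for MEIS3, IRX3, PITX1, DLX1, ZHX2 and SIX4 were 1.67, 1.02, 0.56, 1.00, -1.28 and -0.9992, of the same sign. MEIS3 and IRX3 passed in all 19 fits of this difference, and PITX1 and SIX5 in 7 of 19. The part of EV library 1 in these values was not tested further.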

How the results depend on the processing

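None of the called changes refitted gene by gene (all in the knockdown, the overexpression and the difference, and the 10 largest between the controls) changed direction under the alternatives run, while 6 members that had not passed in the overexpression (LHX2, PAX6, PBX2, ZHX1, MEIS1 and PKNOX1) changed sign without EV library 1. Members called in the knockdown (8) numbered 23 with each line alone, 24 with voom library weights (chosen after seeing the data), 5 by the study's thresholds (unadjusted p under 0.05 and over 2-fold) and 4 to 23 when leaving out 1 library. In the overexpression (8) they numbered 0 with each line alone, where MEOX2 itself (log2 15.29) had an adjusted p of 0.1235 by edgeR, 1 with voom weights and 1 to 22 leaving out 1 library. In the comparison of controls (24) they numbered 8 with voom weights, and in the difference between lines (9) 3 with voom weights and 4 to 19 leaving out 1 library. All genes called in the knockdown (2725) numbered 8683 with each line alone, 9320 with voom weights and 1148 to 8700 leaving out 1 library. In the overexpression (4538) they numbered 0, 750 and 1553 to 10929. With voom weights, 2678 of all genes were called between controls (9843) and 1841 in the difference (4229), which ranged from 2265 to 10435 leaving out 1 library. The cause of these shifts was not tested.

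The replicate block called 3 members in the knockdown, 3 in the overexpression and 3 in the difference (972, 2126 and 2215 of all genes). Same-numbered SNB19 libraries correlated at 0.0435, 0.00256 and 0.0588, so the numbers were not taken as pairs. In U87 the correlation was -0.162, and a block with the U87 numbers crossed, also chosen after seeing the data, called 5 members in the knockdown, 7 in the overexpression and 7 in the difference (1786, 3710 and 3340 of all genes). MEOX2, MEOX1 and MEIS3 passed in all 20 fits of the knockdown, TGIF2 in 19, IRX3 in 17, PBX3 in 10, SIX2 in 9 and DLX1 in 8. In the overexpression MEOX2 passed in 19 of 20, MEIS3 and ZHX2 in 16, PITX1 and TGIF1 in 15, PRRX1 in 14, SIX4 in 9 and IRX3 in 8.

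Upper quartile scaling split the knockdown calls of all genes into 1516 higher and 1230 lower (1210 and 1515 with TMM). limma on FPKM gave 1566 and 1140 there, 2405 and 1724 in the overexpression (1951 and 2587), 6596 and 3067 between controls (4858 and 4985) and 1714 and 2747 in the difference (2458 and 1771). It moved the median of all genes to 0.16 in the overexpression, 0.41 between controls and -0.27 in the difference. Depth limited members at a few counts, such as MEOX1 and TGIF2 in U87.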

Other observations

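The 8 members that were not tested with all libraries had at most 12 counts in any library. POU3F2, a POU factor of neural progenitors, had 12 and 9 counts in U87 OE against 0 and 3 in U87 EV, a normalised ratio of 6.63 (95% counting interval 2.27 to 32.2), and between 0 and 5 counts in SNB19. DLX5 had between 1 and 11 counts in the SNB19 libraries and none in U87. PKNOX2, EMX2, IRX1 and IRX2 had a count in OE library 2 but in no other U87 library, and HHEX had 2 counts in all. POU3F2 passed the low-count filter once EV library 1 was left out, and the test gave a log2 change of 1.86 in the overexpression (edgeR, adjusted p 0.186).

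Among the 47 tested genes of the wider homeobox list, POU2F2, an octamer-binding factor of B cells, had the smallest adjusted p between the controls, at 0.287 FPKM in SNB19 NC and 11.2 in U87 EV (edgeR, log2 difference -5.59, SE 0.26, adjusted p 4.0e-07). Without EV library 1 the log2 difference was -5.88.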
